A study of Mus musculus with 12 samples.

Results

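The transcription factor genes Insm1, Neurod1, Eomes, Dlx1, Dlx2, Dlx5, Sp8, Sp9 and Sox11 were examined in RNA-seq libraries of 2 cell fractions from mouse cortex, the OPCs (oligodendrocyte precursor cells) and the neurons. They make up 9 of the 30165 genes in the OPC table and 9 of the 17918 genes in the neuron table, and all of them were found by symbol in each. The genes were chosen by name with their levels and their dKO against ctl differences in these libraries already known. Those differences are therefore given as a description. No p is printed for a single member, and counts of members past a threshold stand beside the share over all genes with nothing read from them.

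Each group held 3 libraries, and the cells of 2 mice of one genotype were pooled in each library. The dKO mice carried an NG2-CreERT2 driver and floxed alleles of Cacna1c and Cacna1d, which encode the L-type calcium channel pores Cav1.2 and Cav1.3, and recombination was induced with tamoxifen in the second postnatal week. Because NG2 drives the recombinase, the deletion was aimed at OPCs and not at the neurons sorted from the same mice. The ctl mice are labelled WT, and neither their alleles nor the age at cell isolation is given in the sources used here. OPCs were collected with beads against CD140, NG2 and O4. Neurons were what remained once cells bound by beads for ACSA-2 (astrocytes), CD31 (endothelial cells), CD11b (microglia) and O4 (oligodendrocytes) had been held back.

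Newborn neurons in the brain are made from dividing progenitors in a fixed sequence of transcription factors. Insm1 is switched on briefly as progenitors stop dividing and begin to differentiate, in both the GABAergic and the glutamatergic lineages. Dlx1, Dlx2 and Dlx5 are homeobox genes of GABAergic neurons born in the ganglionic eminences and the subventricular zone, and Sp8 and Sp9 are zinc finger genes of the same lineage, needed for olfactory bulb interneurons. Eomes, also known as Tbr2, and Neurod1 follow one another in the glutamatergic lineage of the cortex and the dentate gyrus. Sox11 is active in immature neurons of either kind.

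In the deposited OPC table, 5 of the members lie on chromosome 2. Dlx1 (ENSMUSG00000041911, chr2:71358457-71364325, plus strand) and Dlx2 (ENSMUSG00000023391, chr2:71373752-71377098, minus strand) are a pair of neighbours separated by 9426 bp. Sp9 (ENSMUSG00000068859, chr2:73102269-73115050), Neurod1 (ENSMUSG00000034701, chr2:79282865-79287095) and Insm1 (ENSMUSG00000068154, chr2:146063841-146066940) follow on the same chromosome. Sox11 (ENSMUSG00000063632, chr12:27384263-27392573) and Sp8 (ENSMUSG00000048562, chr12:118810064-118816311) lie on chromosome 12, Dlx5 (ENSMUSG00000029755, chr6:6877805-6882085) on chromosome 6 and Eomes (ENSMUSG00000032446, chr9:118307280-118315200) on chromosome 9. These positions are printed as deposited. They are not those of GRCm38, the build the study's methods name, since 2.09% of the 28720 OPC gene identifiers found in GENCODE M21 had the same start and end there, 1 member among them. The labels name mm39, which was not checked here. The whole span of Dlx1 is overlapped on the other strand by the long noncoding gene Dlx1as, which had 123 to 235 counts per OPC library where Dlx1 had 15 to 42. Neurod1 lies wholly inside the span of Cerkl on the same strand, and 1602 bp of Sp9 are overlapped on the other strand by Cir1. The sources used here do not state that counting used strand, so reads from such overlaps may not be assigned to one gene with certainty.

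The promoters of Dlx1, Dlx2 and Sp9 are shown because these members share chromosome 2 and had every dKO neuron library above every ctl neuron library. The RefSeq promoter table of GRCm38.p6 held windows of 300 bases, mostly before the start site, for 7 of the 9 members, and Insm1 and Dlx5 had none in it. The windows lie at chr2:71529195-71529494 on the plus strand for Dlx1, at chr2:71546705-71547004 on the minus strand for Dlx2 and at chr2:73271676-73271975 on the plus strand for Sp9. These are coordinates of another build than those of the deposited table, so the windows and the gene positions above cannot be set against each other. Capitals mark the GC box GGGCGG on either strand, the core of sites for Sp-family zinc finger proteins.
Dlx1: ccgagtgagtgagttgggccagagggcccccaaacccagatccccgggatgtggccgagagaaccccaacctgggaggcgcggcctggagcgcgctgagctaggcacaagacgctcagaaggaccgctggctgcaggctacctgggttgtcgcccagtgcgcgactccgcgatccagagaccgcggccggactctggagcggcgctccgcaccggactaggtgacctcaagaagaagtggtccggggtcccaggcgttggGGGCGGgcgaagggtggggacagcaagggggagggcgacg
Dlx2: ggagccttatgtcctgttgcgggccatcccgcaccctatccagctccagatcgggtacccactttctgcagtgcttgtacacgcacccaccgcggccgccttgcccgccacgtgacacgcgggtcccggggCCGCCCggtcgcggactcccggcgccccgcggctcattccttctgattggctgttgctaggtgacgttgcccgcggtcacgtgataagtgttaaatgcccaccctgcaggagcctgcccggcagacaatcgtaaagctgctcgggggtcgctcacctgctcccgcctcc
Sp9: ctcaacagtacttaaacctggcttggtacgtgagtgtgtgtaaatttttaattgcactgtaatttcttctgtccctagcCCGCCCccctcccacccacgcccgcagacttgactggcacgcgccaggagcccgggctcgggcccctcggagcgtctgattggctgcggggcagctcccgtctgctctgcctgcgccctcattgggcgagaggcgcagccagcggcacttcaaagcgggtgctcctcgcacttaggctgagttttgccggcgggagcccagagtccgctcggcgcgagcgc
The GC box was present in at least 1 window of 6 of the 7 members and in 35.7% of all 32851 windows in the table. Sp8 had several windows, so members with a motif and windows with it are unlike measures. The windows of Dlx1, Dlx2 and Sp9 held 69.3%, 66.3% and 63.7% G and C bases, beside a median of 52.7% over all windows, and that of Eomes, the member without a GC box, held 47.3%. The homeodomain core TAATTA was found in a window of Sp8 alone among the members and in 5.29% of all windows. The E-box CAGCTG was found in the window of Sox11 alone and in 16.3% of all windows, and the E-box CAGATG was found in 0 of the 7 members and in 17.2% of all windows. All motifs were searched on both strands, and these matches describe the letters of the windows only.

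Total counts ranged from 14935963 to 19812274 per OPC library and from 15052901 to 16344585 per neuron library. The cell markers did not all follow the labels. In the neuron libraries, 10 markers of mature neurons such as Rbfox3 and Snap25 summed to 498 to 1130 CPM (counts scaled to the library total), while 12 endothelial markers summed to 13337 to 29723 CPM and 10 ependymal and choroid plexus markers to 4959 to 30328 CPM. In the OPC libraries, 10 OPC markers summed to 1189 to 2270 CPM and 10 markers of myelinating oligodendrocytes to 47994 to 84180 CPM. No marker of these lists was at 0 in every library. The fractions are called neurons and OPCs below as the labels name them. Cacna1c was lower in every dKO OPC library (257, 336 and 316 normalised counts) than in the ctl OPC libraries (364, 411 and 439), and Cacna1d overlapped between the groups. Counts over the whole gene include exons outside the floxed parts, so they check the labels only in part.

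The levels of the members differed widely within the neuron fraction. On the FPKM scale, which corrects for transcript length, Dlx1 was highest in ctl neurons at 77.6 ± 21.03 (SD, n = 3), followed by Sox11 at 66.5 ± 16.9, Dlx2 at 48.2 ± 12.7 and Dlx5 at 34.6 ± 9.52. The ranges of neighbours in this run overlapped. Sp8 came next at 17.6 ± 3.79 and Sp9 at 14.1 ± 4.80, and the range of Sp8 lay wholly below that of Dlx5. Neurod1 at 4.05 ± 1.23, Insm1 at 3.11 ± 0.770 and Eomes at 2.25 ± 0.137 were the lowest, all below the range of Sp9. In dKO neurons the order was kept down to Sp9, and Insm1 at 7.72 ± 1.43 stood above Neurod1 at 3.90 ± 2.70, with overlapping ranges. Dlx1 in ctl neurons exceeded 92.3% of the 17115 genes with an FPKM above 0 there, and Insm1 exceeded 39.5% of them.

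Within the OPC table the members were at low levels. All of them were at an FPKM of 1.72 or less in every OPC library. Insm1 was highest in ctl OPCs at 0.881 ± 0.0351 FPKM, above 49.3% of the 28868 genes with an FPKM above 0, followed by Sox11 at 0.671 ± 0.176 and Dlx2 at 0.581 ± 0.114, with overlapping ranges. Dlx1 was at 0.199 ± 0.0549 FPKM, and the other members were at 0.105 or lower. The tables of the fractions were counted and scaled separately, so levels were not tested between them.

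The first comparison asked how the members differed between neurons of dKO and ctl mice. Insm1 had 96.6, 164 and 154 TMM-normalised counts in ctl and 389, 320.3 and 279 in dKO. Every dKO library was above every ctl library, and the group means were 138 ± 36.4 in ctl and 329 ± 55.6 in dKO (SD, n = 3 per group). Its log2 fold change of 1.25 ± 0.26 (SE) was the highest of the members, and it lay between 1.05 and 1.39 when each library was left out in turn.

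The GABAergic homeobox genes all had higher means in the dKO neurons. Dlx1 had 2183, 3912 and 3448 normalised counts in ctl and 4765, 5309 and 4197 in dKO, a log2 fold change of 0.58 ± 0.22 that was 0.37 without ctl replicate 1. Dlx2 had 1213, 2142 and 1799 counts in ctl and 2760.0, 3313 and 2474 in dKO, a log2 fold change of 0.73 ± 0.22. Dlx5 had 426, 759 and 736 counts in ctl and 1139, 1248 and 929 in dKO, a log2 fold change of 0.79 ± 0.23. For each of these genes the groups did not overlap, ctl replicate 1 was the lowest library and dKO replicate 2 the highest.

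Of the zinc finger genes, Sp9 separated the groups and Sp8 did not. Sp9 had 349, 735 and 669 normalised counts in ctl and 1091, 938 and 823 in dKO, a log2 fold change of 0.70 ± 0.27 that was 0.44 without ctl replicate 1. Sp8 had 839.8, 1302 and 1302 counts in ctl and 1746, 2059.7 and 1159 in dKO, where dKO replicate 3 fell below 2 of the ctl libraries. The log2 fold change of Sp8 was 0.53 ± 0.25 over all of its transcripts, 0.35 without ctl replicate 1 and 0.34 without dKO replicate 2. Its counts were split over 7 transcripts, the most abundant of which held 67.1% and the next 25.6%. That next transcript was estimated at 0 counts in ctl replicate 1 and dKO replicate 3 and at 1047 in dKO replicate 1. With the most abundant transcript alone the difference was -0.11, so the direction for Sp8 depends on how its transcripts are summed.

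Sox11, the most highly counted member, had 6249, 10776 and 9119.9 normalised counts in ctl and 13009.7, 12250.5 and 9825 in dKO. Its groups overlapped through dKO replicate 3, and the log2 fold change was 0.42 ± 0.22, or 0.23 without ctl replicate 1.

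**Figure D1:**
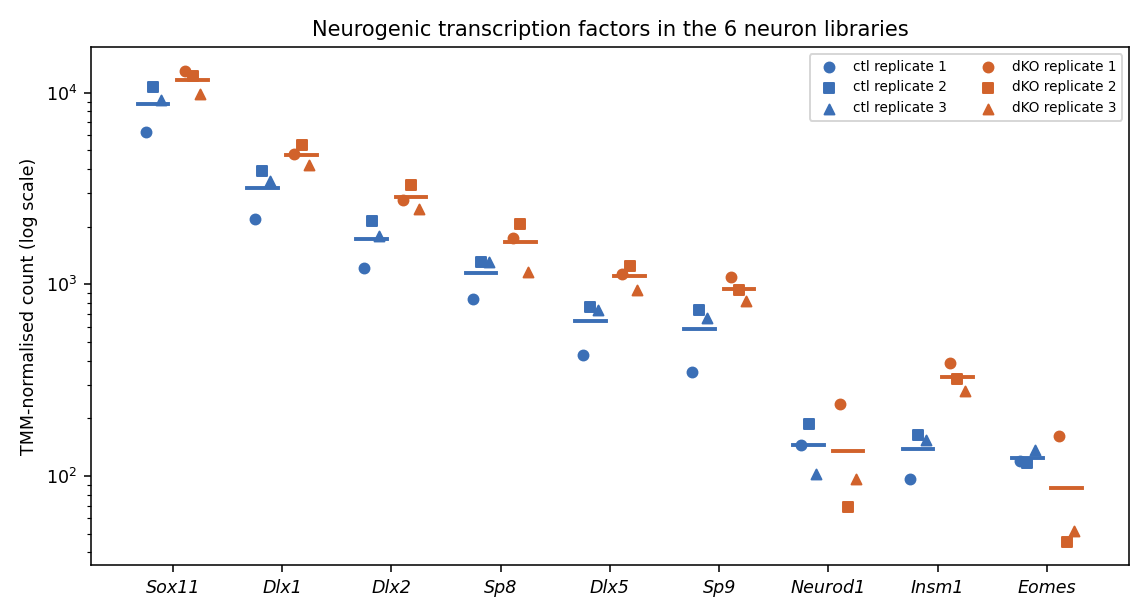
TMM-normalised counts (log axis) of each member in the 6 neuron libraries, with ctl in blue, dKO in orange, a symbol for each replicate and a bar for the group mean. Insm1, Dlx1, Dlx2, Dlx5 and Sp9 have all 3 dKO libraries above all 3 ctl libraries, whereas Neurod1 and Eomes are high in dKO replicate 1 and low in the other dKO libraries.

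The glutamatergic factors among the members, Neurod1 and Eomes, did not share this pattern. Neurod1 had 145, 187 and 103 normalised counts in ctl and 238, 69.0 and 96.0 in dKO, a log2 fold change of -0.11 ± 0.47. Eomes had 120.0, 117 and 136 counts in ctl and 162, 45.4 and 51.6 in dKO, a log2 fold change of -0.53 ± 0.49. For either gene, dKO replicate 1 was the highest of the 6 libraries and the remaining dKO libraries were low. Without dKO replicate 1 the log2 fold change was -0.82 for Neurod1 and -1.36 for Eomes. Without dKO replicate 2 it was 0.20 for Neurod1 and -0.22 for Eomes, and without dKO replicate 3 it was 0.077 and -0.26. In dKO replicate 1, 10 markers of excitatory neurons summed to 292 CPM, against 136 to 154 CPM in the other neuron libraries, and the ependymal and choroid plexus markers summed to 30328 CPM, against 4959 to 14708 CPM. The part of these cells in the Neurod1 and Eomes values was not tested. Other genes of the glutamatergic lineage in the companion list, looked at after their values were seen, were divided in which library was highest. Tbr1 (log2 fold change 0.48 ± 0.55), Neurod2 (0.64 ± 0.75), Neurod6 (0.54 ± 0.66), Neurod4 (0.56 ± 0.71) and Neurog2 (1.12 ± 0.66) all had a higher mean in dKO. Neurog2, which reached the minimum count only through dKO, had every dKO library above every ctl library, beside 7.34% of all genes. Tbr1 had 175 counts in dKO replicate 1 and 42.3 to 69.6 elsewhere, and Neurod2 and Neurod6 were also highest there. Neurog2 was highest in dKO replicate 2, with 20.8 counts against 13.6 in dKO replicate 1, and Neurod4 was highest in ctl replicate 2, with 85.9 against 84.4.

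Over all members in neurons, 7 of 9 were higher and 2 of 9 lower in dKO, with a median log2 fold change of 0.58, beside a median of 0.004 over the 14352 genes tested. Every dKO library was above every ctl library for 5 of the 9 members, and this arrangement was found for 7.34% of all genes tested. An adjusted p under 0.05 in edgeR's quasi-likelihood test was reached by 0 of the 9 members and by 0.0% of all genes (0 of 14352). A higher level in dKO at an unadjusted p under 0.05 was seen for 5 of the 9 members (Insm1, Dlx1, Dlx2, Dlx5 and Sp9) and for 4.87% of all genes. With DESeq2, 1 of the 9 members (Insm1) and 0.614% of all genes passed an adjusted p of 0.05. The members were chosen with this contrast in view, so these shares describe them and nothing is read from the difference to the background. The lowest library for 7 of the 9 members was ctl replicate 1, and without it the median log2 fold change was 0.37.

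The factors were then set beside 3 lists of companion genes to see how far they moved with other genes of newborn neurons. The first list held 26 other neurogenic transcription factors. Of these, 20 were tested in neurons, and all 20 had a higher mean level in dKO, as did 50.6% of all genes, with a median log2 fold change of 0.61. Neurog2 and Dlx6 had reached the minimum count only through the dKO libraries, and without them 18 of 18 were higher with a median of 0.58. The median was 0.33 without dKO replicate 1. Before adjustment, 5 of the 20 had a p under 0.05, all with the higher level in dKO, beside 4.87% of all genes higher and 4.01% lower. Hes6, a bHLH cofactor of neurogenesis, went from 689 ± 129 normalised counts in ctl to 1112 ± 201 in dKO (log2 fold change 0.69 ± 0.19, edgeR adjusted p = 0.527). Myt1, a zinc finger gene of early neurons, had 504 ± 102 and 713 ± 118 counts (0.50 ± 0.20, edgeR adjusted p = 0.528).

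Of the 24 immature neuron genes, 22 were tested in neurons, and 21 had a higher mean in dKO, with a median log2 fold change of 0.48 that was 0.29 without ctl replicate 1. Before adjustment, 8 of the 22 had a p under 0.05, all higher in dKO, against the same 4.87% of all genes. Marcksl1, an actin regulator of growing neurites, had 2333 ± 605 normalised counts in ctl and 3808 ± 828 in dKO (log2 fold change 0.71 ± 0.24). Elavl4, a neuronal RNA-binding protein, had 1619 ± 431 and 2541 ± 355 counts (0.65 ± 0.22). Ccnd2, a cyclin of dividing neuroblasts, had 12601 ± 1976 and 18283 ± 2081 counts (0.54 ± 0.18). The edgeR adjusted p was 0.527 for each.

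Of the 16 olfactory bulb interneuron genes, all were tested in neurons, 15 had a higher mean in dKO, and the median log2 fold change was 0.45, or 0.30 without ctl replicate 1. Vax1, a homeobox gene of the ventral forebrain, had 14.3 ± 6.23 normalised counts in ctl and 48.7 ± 27.4 in dKO (1.76 ± 0.65, edgeR adjusted p = 0.527). Etv1, an ETS factor of dopaminergic bulb neurons, had 802 ± 242 and 1315 ± 483 counts (0.71 ± 0.29, edgeR adjusted p = 0.533). Th, the rate-limiting enzyme of dopamine synthesis, went the other way, with 20.4 ± 10.1 counts in ctl and 7.49 ± 1.18 in dKO (-1.42 ± 0.64, edgeR adjusted p = 0.560). Over the 3 lists, 0 of the 58 genes tested in neurons passed an adjusted p of 0.05 with edgeR or with DESeq2, and 15 had an unadjusted p under 0.05, all higher in dKO. Every dKO library was above every ctl library for 16 of the 58 genes, beside 7.34% of all genes, and below it for 1 (Th), beside 8.0% of all genes. Without Neurog2, Dlx6, Six3 and Th, which reached the minimum count through one group alone, the first arrangement was found for 14 of 54.

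**Figure D2:**
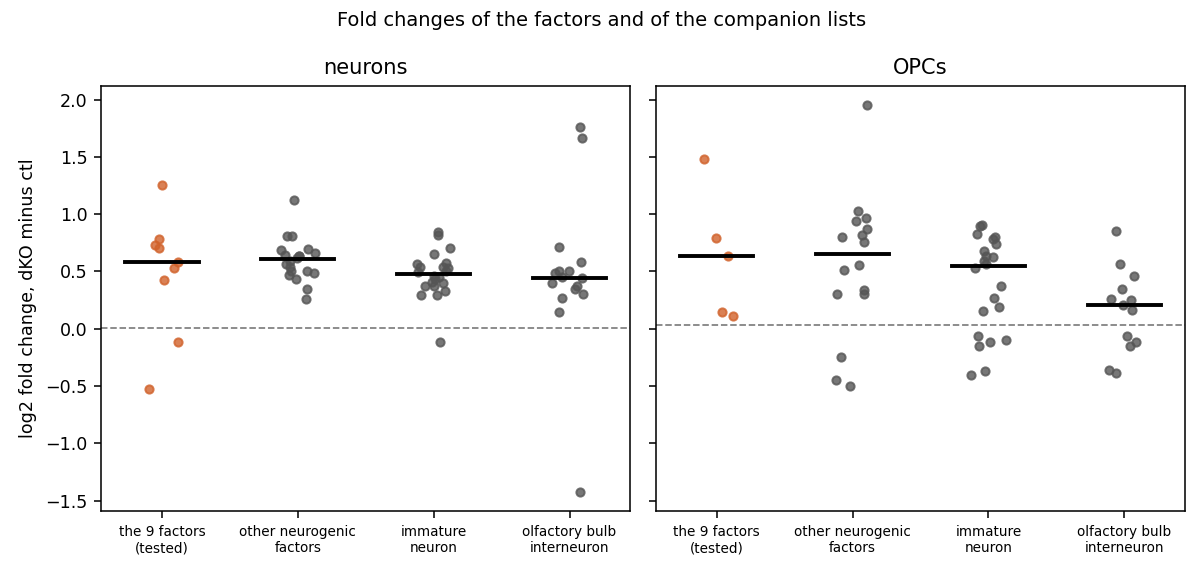
Log2 fold changes (dKO minus ctl) of the tested members in orange and of the 3 companion lists in grey, in neurons (left) and OPCs (right), with a black bar for each median and a dashed line for the median of all genes tested. In neurons the 4 medians lie between 0.45 and 0.61 and the dashed line at 0.004, and in OPCs the medians lie between 0.21 and 0.66.

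In bulk libraries, more cells of a type and more RNA per cell cannot be told apart. The members were therefore also expressed per 1000 normalised counts of the immature neuron genes in the same library, a scaling added after the values had been seen. On this scale Insm1 had 1.76, 2.02 and 1.89 in ctl neurons and 3.49, 3.21 and 3.20 in dKO neurons. The groups remained apart, the spread within each narrowed, and the log2 difference was 0.80 with a pooled SD of 0.09. Dlx5 at 0.35 and Sp9 at 0.29 also kept every dKO library above every ctl library. The share of all genes in this arrangement was not computed on this scale, so nothing is read from it. Dlx1 at 0.14, Dlx2 at 0.29 and Sp8 at 0.04 overlapped between the groups. Sox11 had 114, 133 and 112 per 1000 in ctl and 117, 123 and 113 in dKO, a log2 difference of -0.02. Neurod1 at -0.75 and Eomes at -1.25 were lower in dKO with overlapping groups. The median over the 9 members was 0.14 on this scale. Stmn1 and Ccnd2 together made up 43.8% to 51.5% of the summed immature neuron genes in the neuron libraries. Both had a higher mean in dKO neurons, with log2 fold changes of 0.41 ± 0.19 for Stmn1 and 0.54 ± 0.18 for Ccnd2 (edgeR adjusted p = 0.566 and 0.527).

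**Figure D3:**
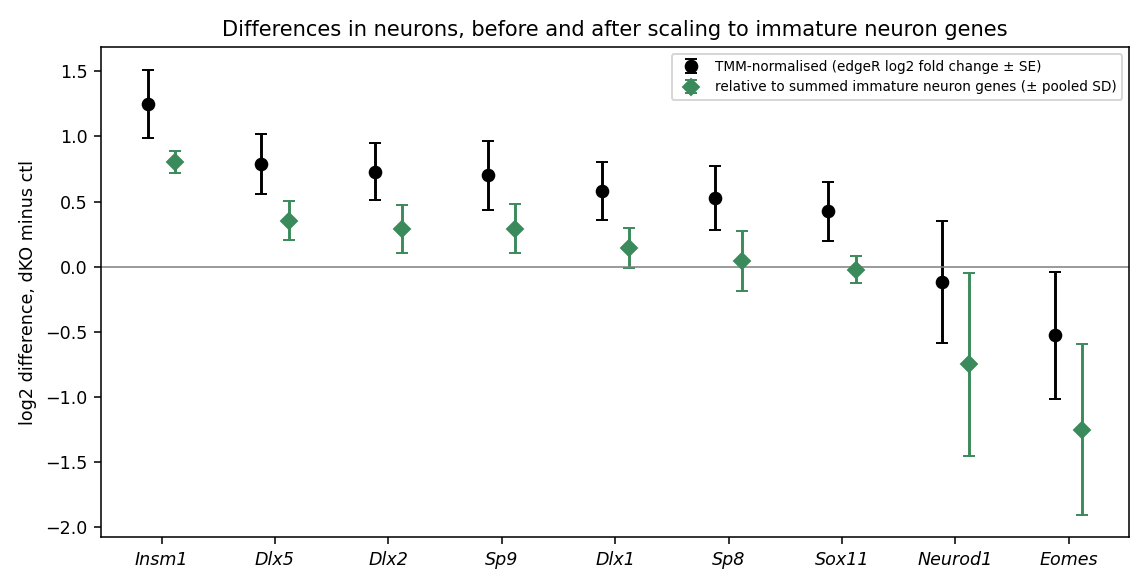
Log2 difference of each member between dKO and ctl neurons, from TMM-normalised counts (black circles, edgeR log2 fold change ± SE) and relative to the summed immature neuron genes of the same library (green diamonds, ± pooled SD within groups, n = 3 per group). Insm1 keeps a difference of 0.80 on the relative scale, while Sox11 goes from 0.42 to -0.02.

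Other cell markers also moved with the groups in the neuron libraries. The 12 endothelial markers all had a lower mean in dKO, and their sum was 25533 to 29723 CPM in ctl and 13337 to 23060 CPM in dKO. The 10 oligodendrocyte markers all had a lower mean in dKO, with sums of 505 to 3779 CPM in ctl and 1035 to 1731 CPM in dKO. The 12 microglia markers were likewise lower in the mean, with sums of 438 to 1959 CPM in ctl and 403 to 1092 CPM in dKO. The 12 proliferation markers, such as Mki67 and Top2a, all had a higher mean in dKO, with sums of 619 to 932 CPM in ctl and 995 to 1075 CPM in dKO. Of the OPC markers, 9 of 10 had a lower mean in dKO, with a median log2 fold change of -0.84. Other lists had higher means in dKO, as the members did. Of the markers of mature neurons, 7 of 10 were higher with a median of 0.48. Their sum was 1130 CPM in dKO replicate 1 and 710.2 and 659 CPM in the other dKO libraries, against 498 to 696 CPM in ctl, while the immature neuron genes summed to 3516 to 5219 CPM in ctl and 5568 to 7142 CPM in dKO without overlap. Of the excitatory neuron markers, 9 of 10 were higher with a median of 0.50. Of the ependymal and choroid plexus markers, 7 of 9 tested were higher with a median of 0.86. The cortical interneuron markers were split 5 to 5, with a median of -0.04, and of the astrocyte markers 7 of 10 were lower with a median of -0.39. The summed members ran from 744 to 1286 CPM in ctl and from 1269 to 1636 CPM in dKO. The part of these other cells in the differences of the members was not tested.

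**Figure D4:**
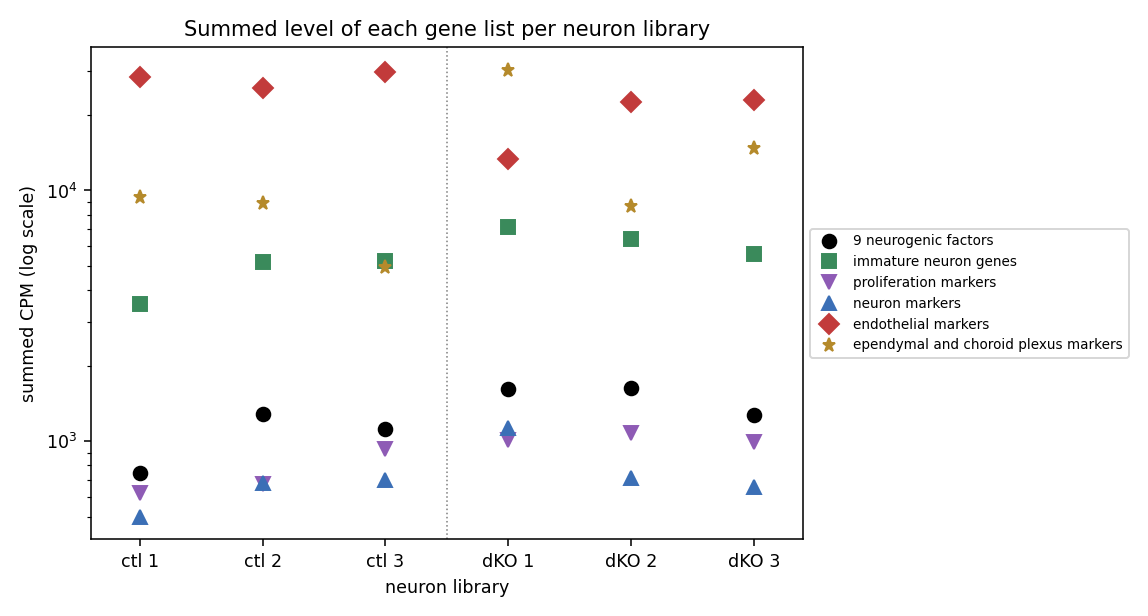
Summed CPM (log axis) of the 9 members and of 5 gene lists in each of the 6 neuron libraries, ctl to the left and dKO to the right of the dotted line. The members are lowest in ctl replicate 1 at 744 CPM, the endothelial markers are lowest in dKO replicate 1 at 13337 CPM, and the ependymal and choroid plexus markers are highest there at 30328 CPM.

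The genes whose log2 CPM followed the members most closely over the 6 neuron libraries included Arhgef25, Nnat, Ttc3, 6330403K07Rik, Stmn2, Marcksl1, Cited2, Dpysl3 and Tubb5. Their Pearson correlations with the mean of the standardised members ran from 0.989 to 0.994, among 12402 genes with a mean normalised count of at least 50. The libraries share the group difference and the low ctl replicate 1, so these values are a description. Among the members themselves Sox11 at 0.985 and Sp9 at 0.972 were closest to their common mean, Insm1 was at 0.913, and Neurod1 at 0.151 and Eomes at -0.078 did not follow it.

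The second comparison asked the same of the OPCs, where the deletion was targeted. Only Insm1, Sox11, Dlx1, Dlx2 and Sp9 reached a mean normalised count of 10. Insm1 had 49.6, 46.5 and 47.0 normalised counts in ctl and 54.8, 63.3 and 40.0 in dKO. The groups overlapped, and the log2 fold change was 0.15 ± 0.28. The ctl libraries lay close together, and dKO replicate 3 was the lowest of the 6.

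Sp9 was the only tested member whose OPC groups did not overlap. It had 6.84, 4.76 and 12.5 normalised counts in ctl and 20.9, 15.4 and 32.5 in dKO, a log2 fold change of 1.48 ± 0.51. These values rest on 4 to 12 reads per library in ctl and 17 to 30 in dKO. The ctl mean of 8.05 ± 4.03 was under the minimum of 10, so Sp9 was tested only through its dKO libraries.

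The other tested members overlapped between the groups in OPCs. Sox11 had 74.4, 125 and 93.0 normalised counts in ctl and 94.6, 252 and 159 in dKO, with a log2 fold change of 0.80 ± 0.36 and the highest value in dKO replicate 2, without which the fold change was 0.38. Dlx1 had 12.8, 22.6 and 20.9 counts in ctl and 21.9, 19.9 and 45.4 in dKO, a log2 fold change of 0.63 ± 0.45 that was carried by dKO replicate 3 and was 0.17 without it. Dlx2 had 23.1, 34.5 and 29.3 counts in ctl and 39.8, 17.2 and 36.8 in dKO, a log2 fold change of 0.11 ± 0.40.

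The 4 members below the minimum had few reads. Neurod1 had 4, 1 and 10 reads in ctl OPCs and 27, 6 and 8 in dKO OPCs. Eomes had 4, 3 and 5 reads in ctl and 14, 9 and 5 in dKO. As in neurons, the highest library of either gene was dKO replicate 1, although the labels do not tie equal numbers to the same mice. Dlx5 had 1, 1 and 6 reads in ctl and 5, 7 and 7 in dKO, and Sp8 had 0, 6 and 6 in ctl and 9, 5 and 1 in dKO. The count of 0 for Sp8 in ctl replicate 1 allows a level of up to 0.151 CPM, counting error only. The normalised counts of Eomes were 3.42, 3.57 and 5.23 in ctl and 13.9, 8.14 and 5.41 in dKO, which did not overlap, although the closest pair of libraries had 5 reads each. The groups of Neurod1, Dlx5 and Sp8 overlapped, and no difference was detectable for them at this depth.

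**Figure D5:**
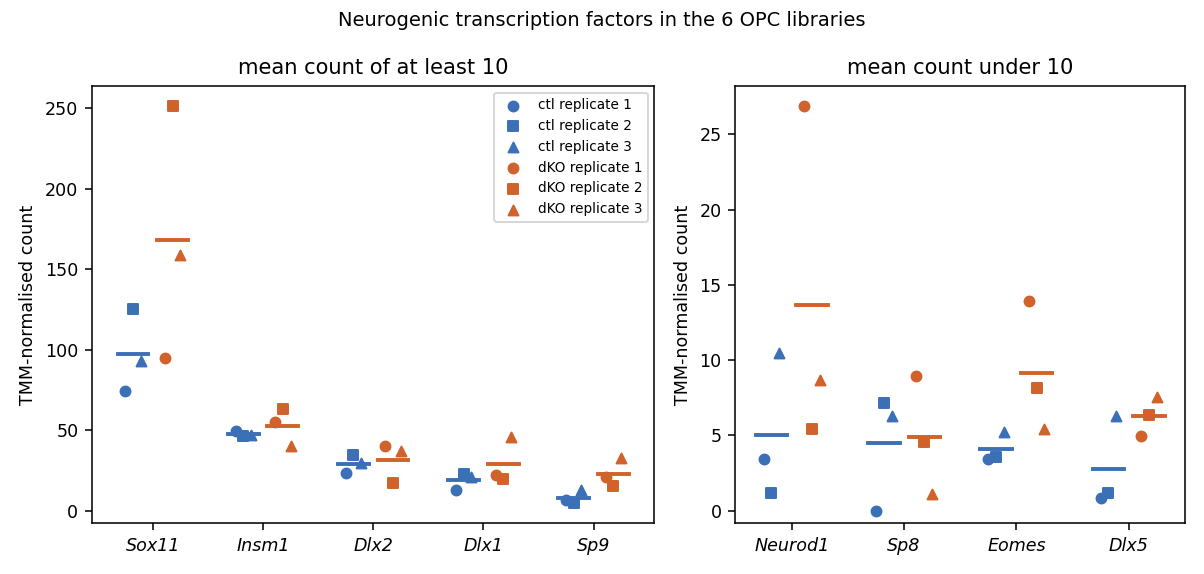
TMM-normalised counts of each member in the 6 OPC libraries, for the 5 members with a mean of at least 10 (left) and the 4 below it (right), with ctl in blue, dKO in orange, a symbol for each replicate and a bar for the group mean. The axes differ in range. Sp9 and the untested Eomes have all dKO libraries above all ctl libraries, and Sox11 reaches 252 in dKO replicate 2.

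All 5 tested members had a higher mean in dKO OPCs, and their median log2 fold change was 0.63, beside 0.03 over the 17364 genes tested. Without dKO replicate 3 it was 0.31, and without dKO replicate 2 it was 0.41. Since 4 members were left out for low counts, this median does not speak for all 9. With no filter on low counts, which keeps all 9, the median was 0.80, resting in part on the few reads of those 4. Sp9 passed the minimum only through the group where it was high. Over the 4 members tested without it the median was 0.39, and 0 of the 4 had separate groups. Every dKO library was above every ctl library for 1 of the 5 members (Sp9) and for 8.59% of all genes. An adjusted p under 0.05 was reached by 0 of the 5 members and by 0.00576% of all genes (1 of 17364) with edgeR, and by 0 members and 1.69% of all genes with DESeq2.

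The companion lists were more divided in OPCs than their medians show. Of the other neurogenic transcription factors, 13 of 16 tested had a higher mean in dKO, as did 54.7% of all genes, with a median log2 fold change of 0.66 that was 0.27 without dKO replicate 2. Without Scrt2, which reached the minimum only through dKO, the median was 0.55. Lhx6, a factor of medial ganglionic interneurons, had 12.1 ± 4.27 normalised counts in ctl and 47.4 ± 27.01 in dKO (1.95 ± 0.56, edgeR adjusted p = 0.298). Scrt1, a neuronal zinc finger repressor, had 69.4 ± 6.25 and 133 ± 48.6 counts (0.94 ± 0.30, edgeR adjusted p = 0.324). Prox1, a homeobox gene of oligodendrocyte and interneuron lineages, had 2477 ± 491 counts in ctl and 1752 ± 163 in dKO (-0.50 ± 0.16, edgeR adjusted p = 0.316).

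Of the immature neuron genes, 16 of 22 tested had a higher mean in dKO OPCs, with a median of 0.55 that was 0.27 without dKO replicate 2, while their summed level of 1153 to 1476 CPM in ctl and 1082 to 1301 CPM in dKO overlapped. Dpysl3, a cytoskeletal protein of growth cones, had 275 ± 41.0 normalised counts in ctl and 440.2 ± 32.1 in dKO (0.68 ± 0.15, edgeR adjusted p = 0.252). Tagln3, an actin-associated protein of neurons, had 239.8 ± 57.3 and 447 ± 225 counts (0.90 ± 0.33, edgeR adjusted p = 0.371). Tubb2b, a tubulin of migrating neurons, had 858 ± 219 and 1495 ± 660.4 counts (0.80 ± 0.30, edgeR adjusted p = 0.378).

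Of the olfactory bulb interneuron genes, 8 of 13 tested had a higher mean in dKO OPCs, with a median of 0.21 that was 0.045 without dKO replicate 2. Sall3, a zinc finger gene of bulb interneurons, had 94.3 ± 15.9 normalised counts in ctl and 170.2 ± 21.3 in dKO (0.85 ± 0.21, edgeR adjusted p = 0.281). Erbb4, the neuregulin receptor, had 1689 ± 136 and 1317 ± 132 counts (-0.36 ± 0.12, edgeR adjusted p = 0.333), and Synpr, a synaptic vesicle protein, had 339 ± 47.3 and 259 ± 49.0 counts (-0.38 ± 0.18, edgeR adjusted p = 0.472). Over the 3 lists, 0 of 51 genes passed an adjusted p of 0.05 with edgeR and 2 (Dpysl3 and Sall3) with DESeq2, beside 0.00576% and 1.69% of all genes. Before adjustment, a p under 0.05 was seen for 7 genes higher and 3 lower in dKO, and in all genes for 7.1% and 4.27%. Every dKO library was above every ctl library for 8 of the 51 genes, beside 8.59% of all genes, and below it for 4, beside 7.82%.

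The cell markers also differed between the groups in OPCs. The 10 astrocyte markers all had a higher mean in dKO, with sums of 1327 to 2282 CPM in ctl and 2231 to 6342 CPM in dKO, and the highest sum was in dKO replicate 2, the library with the highest Sox11. The 12 microglia markers all had a higher mean in dKO, with sums of 271 to 327 CPM in ctl and 345 to 1109 CPM in dKO. Of the markers of mature neurons, 9 of 10 had a higher mean in dKO, with a median of 0.49, and they summed to 153 to 199 CPM in ctl and 187 to 292 CPM in dKO, again highest in dKO replicate 2. The 12 endothelial markers all had a higher mean in dKO, with a median log2 fold change of 0.38 and overlapping sums of 1580 to 2301 CPM in ctl and 1307 to 3684 CPM in dKO. Of the oligodendrocyte markers, 8 of 10 had a lower mean in dKO, with a median of -0.40. Higher means were seen for 7 of 9 tested excitatory neuron markers, with a median of 0.46, and for 5 of 7 tested cortical interneuron markers, with a median of 0.51 and sums of 18.6 to 29.8 CPM in ctl and 27.4 to 33.2 CPM in dKO. Of the OPC markers themselves, 7 of 10 had a higher mean in dKO, with a median of 0.52 and overlapping sums of 1412 to 2270 CPM in ctl and 1189 to 2203 CPM in dKO. Of the proliferation markers, 9 of 12 had a higher mean, with a median of 0.20 and overlapping sums of 79.5 to 96.6 CPM in ctl and 82.8 to 94.5 CPM in dKO, and 7 of 10 ependymal and choroid plexus markers did, with a median of 0.10. The summed members ran from 9.95 to 14.1 CPM in ctl and from 16.4 to 22.4 CPM in dKO. The part of these cells in the values of the members was not tested.

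Relative to the immature neuron genes of the same OPC library, Sp9 had 0.339, 0.184 and 0.543 per 1000 in ctl and 0.917, 0.700 and 1.71 in dKO, a log2 difference of 1.67. Dlx1 had 0.635, 0.875 and 0.904 per 1000 in ctl and 0.960, 0.905 and 2.40 in dKO, a log2 difference of 0.68, and its groups were apart by the narrow gap from 0.904 to 0.905. Sox11 at 0.82, Insm1 at 0.23 and Dlx2 at 0.15 overlapped between the groups, and the median over the 5 members was 0.68. Here too the share of all genes with separate groups was not computed on this scale. Stmn1 and Elavl3 together made up 47.4% to 66.3% of the summed immature neuron genes in the OPC libraries. Both had a lower mean in dKO OPCs, with log2 fold changes of -0.41 ± 0.19 for Stmn1 and -0.37 ± 0.17 for Elavl3 (edgeR adjusted p = 0.470 and 0.467). The genes most like the 5 tested members over the 6 OPC libraries were Sall3, Nr4a3, Gm26982, Snx18, Efnb1, Rnf115, Cdh13, Fbxo10, Sh3bp4 and Rab35, with correlations of 0.974 to 0.995 among 13446 genes. Insm1 in OPCs did not follow the common mean of the members (0.008), while Sp9 was at 0.844 and Dlx1 at 0.807.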

How the data were processed

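Poly(A) RNA of 12 libraries was sequenced, and groups were taken from the titles of the libraries and the column names. The study's methods name one pipeline, HISAT2 on GRCm38 with featureCounts per gene. The OPC table the authors deposited holds raw counts per gene, but its gene positions are not those of GRCm38, so the annotation behind it is not settled by the sources used here. The neuron table the authors deposited holds estimated counts of 66298 RefSeq transcripts, which counting per gene does not give, and how it was made is not given in the sources used here. They were summed per gene and rounded. Symbols were matched through RefSeq for 17794 of 17918 neuron genes, and genes without one held 0.0441% of the counts. The FPKM values the authors deposited were used for levels between genes. The deposited TPM values were not used. The normalised signal columns that the authors deposited, read counts rescaled between libraries, were not used either, nor were their fold changes and p-values.

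In each fraction alone, dKO was compared with ctl for genes whose TMM-normalised count averaged 10 or more, with edgeR 4.0.16 (R 4.3.3), as a quasi-likelihood test with Benjamini-Hochberg adjustment over all genes tested. The SE was derived from the fold change and the F statistic, as log2 fold change over root F. Scripts were tested on simulated data with 200 changed genes. The coefficient of variation between libraries was 27.7% in neurons and 20.4% in OPCs. With 3 libraries against 3, an exact permutation test cannot give a p under 0.1. The deposited p-values of the authors are not printed. No library repeated another within sampling noise.

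The members and the gene lists were chosen with earlier results of these data known. Named genes are the members, per companion list and fraction the 3 genes of lowest p, the 10 genes most like the members in each fraction, and the targeted genes. Genes of the glutamatergic lineage, those that passed the minimum through one group alone, and those with a large part of the immature neuron sum were named after their values were seen. One gene that these rules name in neurons is not reported here. Alternatives covered DESeq2 1.42.0, its size factors, the filter, the replicate block, the most abundant transcript, the threshold and each library left out, and 1 scaling was added after the values were seen.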

Additional observations from a re-analysis of the deposited data

Results flagged for a closer look

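Prox1, one of the companion neurogenic transcription factors, was arranged in opposite ways in the fractions. In neurons its log2 fold change was 0.50 and every dKO library was above every ctl library, and in OPCs it was -0.50 and every dKO library was below every ctl library. The first arrangement was found for 7.34% of all genes tested in neurons and the second for 7.82% of those tested in OPCs. The share of all genes with both was not computed, so nothing is read from Prox1. It was found among 48 companion genes and 5 members tested in both fractions, neither change passed an adjusted p of 0.05 in edgeR, and the difference between the fractions was not tested because their tables were counted in different ways. Groups of 3 libraries are too small for the check on single outlying samples.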

How the results depend on the processing

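Of the 14 fold changes of members, 9 kept their sign under every alternative run. In neurons, Sp8 was at -0.11 with the most abundant transcript, Sox11 at -0.022 relative to the summed immature neuron genes, and Neurod1 at 0.12, 0.20 and 0.077 when ctl replicate 2, dKO replicate 2 or dKO replicate 3 was left out, so Neurod1 ranged from -0.82 to 0.20 over libraries left out. In OPCs, Insm1 was at -0.012 without dKO replicate 2 (range to 0.31), and Dlx2 at -0.033, -0.097 and -0.021 when ctl replicate 1, dKO replicate 1 or dKO replicate 3 was left out (range to 0.41). The cause was not tested. With edgeR, 0 members were called in either fraction under any filter, scaling or library left out. All genes called were 0.0% in neurons in each of these fits and, in OPCs, 0.00573% to 0.0115% except for 0.288% with no filter and 1.41% without dKO replicate 2. DESeq2 called 1 of 9 members in neurons (Insm1), beside 0.614% of all genes, and 2 of 51 companion genes in OPCs, beside 1.69%. Before adjustment, 5 of 9 members and 15 of 58 companion genes had a p under 0.05 in neurons, beside 4.87% of all genes higher and 4.01% lower, as did 1 of 5 members (Sp9, tested only through dKO) and 10 of 51 companion genes in OPCs, beside 7.1% higher and 4.27% lower. Without dKO replicate 2, 1 companion gene of 51 tested with all libraries (Lhx6) was called in OPCs (range over libraries 0 to 1) beside those 1.41% of all genes (244 of 17245).

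Relative to the summed immature neuron genes, the median of the members in neurons fell to 0.14. Over libraries left out it was 0.37 to 0.76 in neurons and 0.31 to 0.89 in OPCs. In neurons the medians of the companion lists ranged from 0.33 to 0.81 for other neurogenic factors, 0.29 to 0.63 for immature neuron genes and 0.30 to 0.63 for olfactory bulb interneuron genes. In OPCs they ranged from 0.27 to 0.80 for other neurogenic factors, 0.27 to 0.65 for immature neuron genes and 0.045 to 0.29 for olfactory bulb interneuron genes, the lowest each time without dKO replicate 2. The number of members with all dKO libraries above all ctl libraries ranged from 5 to 7 of 9 in neurons, beside 11.1% to 15.1% of all genes with a library left out, and from 1 to 2 of 5 in OPCs, beside 11.9% to 17.7%. With the replicate block, 0 members were called in either fraction, beside 0.0% of all genes in neurons and 0.334% (58 of 17364) in OPCs, up from 1 gene without it, and the median was 0.62 in neurons and 0.58 in OPCs. Deviations of same-numbered libraries correlated at 0.167, -0.067 and -0.069 in neurons and at -0.114, 0.154 and 0.12 in OPCs. These values did not show a pairing by number, and with 3 libraries per group they cannot exclude one. At the depth of the OPC libraries, Neurod1, Eomes, Dlx5 and Sp8 were too low to compare.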
